A study of Mus musculus with 16 samples.

Results

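Cell cycle genes encode the proteins that copy the chromosomes and divide them between daughter cells. Here 51 such genes were named by symbol and placed by role into 7 genes of G1 and the G1/S switch, 11 of S phase, 9 of mitotic entry and 24 of mitosis. Of the 51 genes, 50 had a probe set that carries their symbol alone, among 18194 genes measured in the same way. Ccnb1 had no such probe set and has no value below. The study measured RNA on 16 arrays of mouse gastrocnemius muscle and of C2C12 cells, and compared muscle and cells with and without overexpression of Galgt2, a glycosyltransferase gene now called B4galnt2. All muscle came from male mice aged 2 months, with 2 arrays per group. The first array set held wild-type muscle (strain C57BL/6J), mdx muscle (C57BL/10J, deficient in dystrophin), Galgt2 Transgenic muscle (C57BL/6J) and muscle carrying both the transgene and the dystrophin deficiency (C57BL/10J x C57BL/6J). The second set held dystrophin-deficient C57BL/10J muscle given an adeno-associated virus (AAV) that carries Galgt2, and contralateral muscle given phosphate-buffered saline (PBS). The third set held 1 array each of C2C12, a mouse myoblast line, and of C2C12 stably transfected with Galgt2, as myoblasts and as myotubes. The labels do not name the promoter of the transgene, the capsid or dose of the virus, or whether the transfected cells are 1 clone. The wild-type and mdx groups differ in strain as well as in dystrophin, so strain and dystrophin deficiency cannot be told apart in that comparison, and the transgenic mdx group is of mixed strain.

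A dividing cell passes from G1, where D and E cyclins with their kinases release the E2F transcription factors, into S phase, where nucleotides are made and the MCM helicase opens DNA for copying. CDK1 with A and B cyclins then starts mitosis, in which kinesins, the chromosomal passenger complex and the anaphase-promoting complex align, separate and release the chromosomes. Nuclei of mature muscle fibres have left the cell cycle, and new muscle nuclei come from satellite cells, which divide after injury. Dystrophin-deficient mdx muscle goes through repeated fibre loss and regrowth and holds many immune cells, which can also divide.

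Promoters of these genes share short motifs, and the promoters of 7 members whose levels recur below are shown so that the motifs can be set beside the array values. In RefSeq sequence of build GRCm38.p6, 44 of the 51 members had a promoter entry, with 47 start sites; Ccna2, Ccnd1, Ccne2, Mcm4, Kif20a, Tpx2 and Aurkb are named only. Each window of 300 bases, 250 before and 50 after the start, was searched on both strands for 3 motifs. These were the cell cycle homology region (CHR), TTTGAA, bound by the MuvB complexes that repress or activate genes of the second part of the cycle, the CCAAT box, bound by NF-Y, and the E2F site, as TTTCCCGC, TTTGGCGC, TTTCGCGC or TTTGCCGC. The CHR letters were found in 23 of 31 promoters of mitotic entry and mitosis genes (74.2%), in 2 of 16 promoters of G1 and S phase genes (12.5%) and in 17.9% of all 32851 promoters of the table. The order was the other way for the E2F letters, found in 3.23%, 37.5% and 2.26% of the same sets. CCAAT was found in 80.6% and 75.0% of the member sets and in 37.4% of all promoters. CHR and CCAAT occurred together in 67.7% of mitotic entry and mitosis promoters and in 6.95% of all. A match is a run of letters, not a measured binding site. The lines give 200 bases each, 170 before to 30 after the start, 5′ to 3′ on the gene's strand, with motif letters in capitals and overlapping matches run together.
E2f8: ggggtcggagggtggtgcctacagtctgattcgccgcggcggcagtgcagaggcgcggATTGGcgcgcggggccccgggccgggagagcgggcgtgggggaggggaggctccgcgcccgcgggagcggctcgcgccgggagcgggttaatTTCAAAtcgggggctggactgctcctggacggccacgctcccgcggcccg
Mcm5: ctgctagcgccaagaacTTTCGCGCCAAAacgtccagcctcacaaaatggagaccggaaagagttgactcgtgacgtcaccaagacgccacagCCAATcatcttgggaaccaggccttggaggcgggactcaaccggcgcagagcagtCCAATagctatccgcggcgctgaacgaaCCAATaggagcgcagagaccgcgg
Mcm6: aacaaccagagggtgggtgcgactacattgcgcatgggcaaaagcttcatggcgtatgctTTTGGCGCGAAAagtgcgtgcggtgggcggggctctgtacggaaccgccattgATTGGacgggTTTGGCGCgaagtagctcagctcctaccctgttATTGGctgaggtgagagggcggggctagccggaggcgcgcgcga
Cks2: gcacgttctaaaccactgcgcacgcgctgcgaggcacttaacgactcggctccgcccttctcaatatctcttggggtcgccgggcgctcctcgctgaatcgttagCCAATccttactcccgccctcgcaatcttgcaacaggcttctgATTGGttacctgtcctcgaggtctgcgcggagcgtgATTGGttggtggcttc
Cdk1: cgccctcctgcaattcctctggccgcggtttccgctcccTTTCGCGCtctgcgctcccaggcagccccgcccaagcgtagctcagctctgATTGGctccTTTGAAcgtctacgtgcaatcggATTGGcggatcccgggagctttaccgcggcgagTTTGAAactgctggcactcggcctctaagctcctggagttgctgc
Ccnb2: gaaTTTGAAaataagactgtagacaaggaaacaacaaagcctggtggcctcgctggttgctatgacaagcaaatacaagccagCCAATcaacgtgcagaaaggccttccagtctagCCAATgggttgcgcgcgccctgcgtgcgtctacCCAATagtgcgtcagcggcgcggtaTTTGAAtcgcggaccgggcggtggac
Ube2c: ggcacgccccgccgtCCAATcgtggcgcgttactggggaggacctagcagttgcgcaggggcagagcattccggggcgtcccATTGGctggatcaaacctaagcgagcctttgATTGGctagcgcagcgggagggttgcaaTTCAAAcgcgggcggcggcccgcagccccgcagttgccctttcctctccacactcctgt
The windows lie at chr7:48881567-48881766 on the minus strand for E2f8, chr8:75109339-75109538 on the plus strand for Mcm5, chr1:128359676-128359875 on the minus strand for Mcm6, chr13:51645062-51645261 on the plus strand for Cks2, chr10:69352883-69353082 on the minus strand for Cdk1, chr9:70421525-70421724 on the minus strand for Ccnb2 and chr2:164769759-164769958 on the plus strand for Ube2c. Cdk1 carries the E2F letters 131 bases before its start and CHR at 71 and 15 bases before it. Ccnb2 has CHR 167 bases before and 5 bases after the start, and Ube2c 29 bases before it. Mcm5 and Mcm6 carry E2F letters and CCAAT and no CHR. Cks2 holds CCAAT alone, and E2f8, a G1/S gene by role, has CHR 20 bases before its start and none of the E2F letters searched.

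The values are probe set intensities on a linear scale, analysed as log2, so 1 unit is a 2-fold difference. Array medians were 57.7 to 63.9 in the first set, 25.3 to 25.7 in the second and 57.2 to 60.4 in the third, and levels were compared only within a set. B4galnt2 followed the labels within each set except in mdx replicate 2. In the first set it read 13.17 to 13.34 (log2) in both transgenic groups and 3.86 to 4.94 in the others, with mdx replicate 2 at 7.78. In the second set it read 10.54 and 10.56 after AAV and 5.27 and 4.26 after PBS. Dmd, the dystrophin gene, read 8.52 and 8.13 in mdx and 9.86 and 9.87 in transgenic mdx muscle, against 10.98 to 11.16 in the groups of the first set with dystrophin. All 10 markers of muscle fibres were above the median gene on every muscle array. Of the 50 cell cycle genes, 13 were at or above the median gene on each wild-type array and 30 and 31 on the mdx arrays. The number was 15 to 22 on the transgenic and transgenic mdx arrays and 24 to 33 in the second set. Many differences below therefore involve dim probe sets. Nothing in the labels says that replicate arrays are separate mice or which AAV and PBS arrays share a mouse, so the p-values reflect only how far these samples spread, which may be technical. In bulk tissue, fewer cells of a type and less RNA per cell cannot be told apart.

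Muscle of mdx mice carried more cell cycle transcript than wild-type muscle, and each role of the cycle held genes that rose. Of the 50 measured genes, 22 rose and 0 fell with an adjusted p below 0.05 in limma (adjustment of Benjamini and Hochberg over 18194 genes), where 3.75% of all genes rose and 1.69% fell. The median log2 difference was 1.22 over the cell cycle genes and 0.01 over all genes, and 47 of 50 genes lay above 0. Both mdx arrays exceeded both wild-type arrays for 42 of 50 genes, against 23.7% of all genes. By role, 2 of 7 G1 genes, 3 of 11 S phase genes, 5 of 8 mitotic entry genes and 12 of 24 mitosis genes rose, with medians of 0.92, 1.13, 1.61 and 1.31. The numbers rest on few arrays: 2 genes were called without wild-type replicate 1, 5 without wild-type replicate 2, 14 without mdx replicate 1 and 13 without mdx replicate 2, whose B4galnt2 level goes against its label. The 14 are 13 higher and 1 lower, Ccne2 (-2.14 ± 0.27, adjusted p = 0.00661). After alignment of the array medians, 21 of the 50 rose and 1, Ccne2, fell, while the split over all genes turned from 682 higher and 308 lower to 540 and 1080 and the median of all genes to -0.28.

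**Figure D1:**
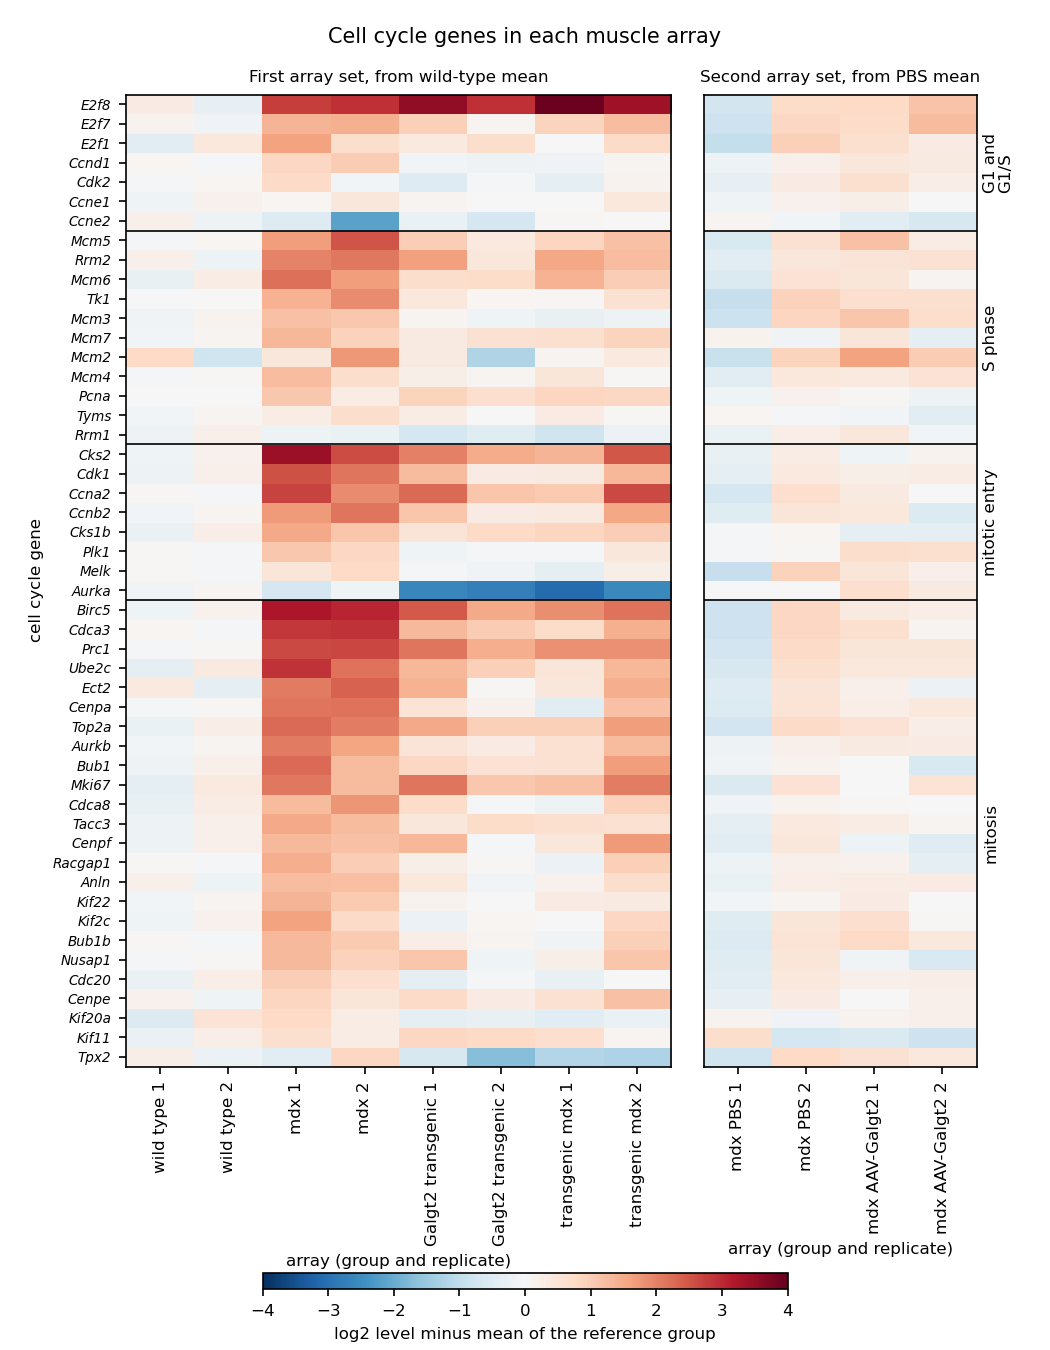
Each row is a cell cycle gene and each column a muscle array; colour gives the log2 level minus the mean of the wild-type arrays (first set) or of the PBS arrays (second set), with black lines between roles. The 2 mdx columns are red for nearly all genes, Aurka is blue in all 4 transgenic arrays, and PBS replicate 1 is lower than PBS replicate 2 for 44 of 50 genes.

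At the G1/S switch the rise was carried by E2f8, an atypical E2F that represses E2F targets late in S phase, and by Ccnd1, the cyclin D1 gene. E2f8 read 5.32 and 4.64 in wild type and 7.74 and 7.91 in mdx, a difference of 2.85 ± 0.43 (limma standard error, 2 arrays per group, as for every ± of the muscle arrays; adjusted p = 0.0069). Ccnd1 read 10.30 and 10.16 in wild type and 11.07 and 11.24 in mdx (0.92 ± 0.21, adjusted p = 0.0295). For both genes the mdx arrays lay above the wild-type arrays. The other genes of this role did not pass. E2f7, the partner of E2f8, differed by 1.39 ± 0.47 (adjusted p = 0.114) and E2f1, an activating E2F, by 1.16 ± 0.56 (adjusted p = 0.287). Ccne2, a cyclin E gene, pointed the other way at -1.33 ± 0.42 (adjusted p = 0.0957), mostly through mdx replicate 2, which read 5.74 where replicate 1 read 7.36. Its relative Ccne1 and its kinase Cdk2 differed little, and their mdx and wild-type arrays overlapped.

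Among S phase genes, Rrm2, the regulated subunit of ribonucleotide reductase, and the helicase subunits Mcm5 and Mcm6 rose. Rrm2 read 9.94 and 9.54 in wild type and 11.74 and 11.84 in mdx (2.05 ± 0.39, adjusted p = 0.016). Mcm5 went from 5.73 and 5.90 to 7.50 and 8.34 (2.10 ± 0.44, adjusted p = 0.0239), and Mcm6 from 6.00 and 6.60 to 8.50 and 7.99 (1.94 ± 0.37, adjusted p = 0.0165). No arrays overlapped between the groups for these 3 genes. Another helicase subunit, Mcm7, stood at 1.13 ± 0.29 (adjusted p = 0.0504), and thymidine kinase, Tk1, at 1.64 ± 0.47 (adjusted p = 0.0746). Rrm1, the large subunit of the same reductase as Rrm2, was the only S phase gene below 0, at 7.98 and 8.36 in wild type and 7.96 and 7.90 in mdx. Mcm2 spread from 5.86 to 7.43 between the wild-type replicates, more than its difference between the groups.

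Mitotic entry genes had the largest median of the 4 roles. Cks2, a small subunit that tethers CDK1 to its substrates, read 5.11 and 5.47 in wild type and 8.72 and 7.89 in mdx (3.01 ± 0.41, 8.08-fold, adjusted p = 0.0046). Alone among the 22 genes, it kept its call whichever of the 12 arrays was dropped. Cdk1, the kinase of mitotic entry, went from 5.71 and 6.10 to 8.47 and 8.05 (2.35 ± 0.40, adjusted p = 0.011). Its cyclin Ccnb2 went from 4.94 and 5.16 to 6.74 and 7.20 (1.92 ± 0.47, adjusted p = 0.0436). Cks1b, the sister of Cks2, went from 9.13 and 9.69 to 10.94 and 10.51 (1.31 ± 0.24, adjusted p = 0.0138), and the polo kinase gene Plk1 rose by 0.95 ± 0.21. The arrays of the groups were apart for all 5 genes. Ccna2, the cyclin A2 gene, differed by 2.29 ± 0.59 and missed the threshold (adjusted p = 0.0508). Aurka, the centrosome kinase Aurora A, did not follow: it read 7.60 and 7.83 in wild type and 7.03 and 7.55 in mdx (-0.43 ± 0.25, adjusted p = 0.395).

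Mitosis genes held 12 of the 22 rises, and all 24 lay above 0. Birc5, the survivin gene, part of the chromosomal passenger complex, had the largest difference of the 50, from 5.95 and 6.29 in wild type to 9.36 and 9.15 in mdx (3.14 ± 0.47, 8.81-fold, adjusted p = 0.00627). Cdca3, a trigger of mitotic entry, went from 5.71 and 5.54 to 8.46 and 8.51 (2.86 ± 0.45, adjusted p = 0.00758). Prc1, which bundles microtubules of the central spindle, went from 6.40 and 6.47 to 9.07 and 9.10 (2.66 ± 0.40, adjusted p = 0.0065). Ube2c, the ubiquitin-conjugating enzyme of the anaphase-promoting complex, went from 5.0 and 5.74 to 8.24 and 7.53 (2.52 ± 0.44, adjusted p = 0.012). In each of these 4 genes both mdx arrays lay above both wild-type arrays, and replicates differed by less than the groups did. The other 8 that rose were Ect2, Cenpa, Top2a, Aurkb, Bub1, Tacc3, Anln and Kif22, by 1.19 to 2.22. Mki67, the gene of the proliferation marker Ki-67, went from 5.37 and 6.15 to 7.86 and 7.03 and did not pass (1.69 ± 0.51, adjusted p = 0.0836). Tpx2, the activator of Aurora A, had the smallest difference, 0.18 ± 0.55. Among the 22 genes that rose, 16 have further probe sets; for Top2a, Cdca3 and Anln some of these gave the opposite sign, at mean log2 levels of 2.89 to 3.56, where the probe sets used lie at 5.30 to 6.77.

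**Figure D2:**
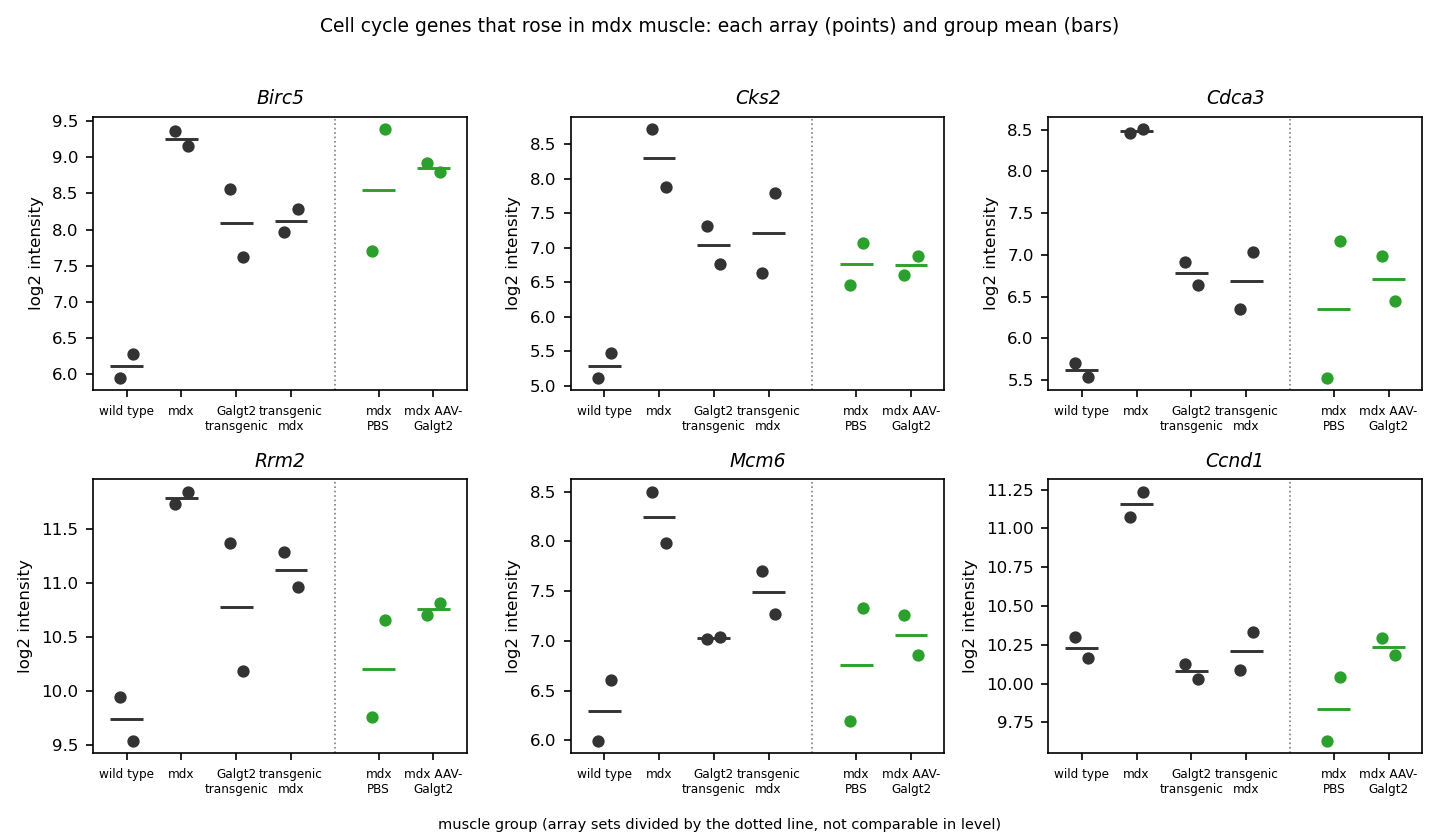
Points are single arrays and bars group means of the log2 intensity of Birc5, Cks2, Cdca3, Rrm2, Mcm6 and Ccnd1; the dotted line divides the array sets, whose levels are not comparable. Both mdx arrays lie above both wild-type arrays for each gene, Ccnd1 is near the wild-type level in both transgenic groups, and PBS replicate 1 lies below PBS replicate 2.

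Markers of other cells moved with the mdx rise. Of 15 macrophage and monocyte markers, 11 rose, and their summed intensity was 8297 to 11005 in wild type and 38970 to 42910 in mdx. Of 10 satellite cell and myoblast markers, 3 rose (Myog, Mymk and Mymx, which the myotube list also holds), with sums of 10579 to 11116 and 18788 to 19149. Myotube markers rose in 7 of 15 cases, those 3 included. Lymphocyte markers rose in 1 of 8 cases, and their sums were 229 to 308 against 556 to 1154. Of 8 fibroblast and 8 endothelial markers, 0 were called, with 0 and 1 at an unadjusted p under 0.05. On both wild-type arrays 0 of 8 lymphocyte markers were at or above the median gene, and on the mdx arrays 3 and 1, so the lymphocyte sums are of dim probe sets. The part of these cells in the cell cycle result was not tested.

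Related genes outside the 51 were counted in 4 lists, to be read beside the 3.75% of all genes that rose and the 1.69% that fell in mdx muscle. Of 23 further replication genes, 5 rose, led by Cdt1, the licensing factor that loads the MCM helicase (3.26 ± 0.59, adjusted p = 0.0133), and Uhrf1, which keeps DNA methylation after copying (2.83 ± 0.51, adjusted p = 0.0128). Of 30 further mitosis genes, 4 rose, with the condensin subunit gene Ncapg at 1.88 ± 0.47 and the CDK1 phosphatase gene Cdc25b at 1.69 ± 0.37. The G1 kinase genes Cdk4 and Cdk6 and the E2F gene E2f2 (2.07 ± 0.36) were the 3 of 9 further G1 genes that rose. The genes that restrain the cycle did not lean one way, with 9 of 17 above 0 and a median of 0.02, and their 1 call is near the share over all genes. It was Cdkn1a, the p21 inhibitor of cyclin-dependent kinases, from 9.55 and 9.09 to 10.60 and 10.87 (1.42 ± 0.30, adjusted p = 0.0235). None of these calls held without wild-type replicate 1 or without wild-type replicate 2, and counts with single arrays left out ran from 0 to 6 for replication, 0 to 6 for mitosis, 0 to 4 for G1 and 0 to 1 for the restraining genes. No gene of the 4 lists fell.

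The Galgt2 transgene on its own, in muscle with dystrophin, went with a few large differences. Against wild type, 3 of the 50 genes rose and 1 fell, where 2.12% of all genes rose and 1.03% fell. The median over the 50 was 0.47, with -0.05 over all genes, and 37 lay above 0. E2f8 read 8.51 and 7.91 in transgenic muscle against 5.32 and 4.64 in wild type (3.23 ± 0.43, 9.38-fold, adjusted p = 0.00311). Its other probe set, at a mean log2 level of 3.48, gave -0.09. Aurka fell to 5.11 and 4.97 from 7.60 and 7.83 (-2.67 ± 0.25, 6.38-fold lower, adjusted p = 0.000449). Its other probe set lies at a mean log2 level of 3.49 and gave -0.10. Cks2 read 7.31 and 6.77 (1.75 ± 0.41, adjusted p = 0.0482) and Prc1 8.57 and 7.89 (1.80 ± 0.40, adjusted p = 0.0385), between their wild-type and mdx levels. Birc5 missed the threshold at 1.98 ± 0.47 (adjusted p = 0.0512). No S phase gene passed: Pcna, the sliding clamp of DNA polymerase, differed by 0.78 ± 0.26 (adjusted p = 0.176) and Rrm2 by 1.04 ± 0.39 (adjusted p = 0.236). Dropping any single array kept the calls of E2f8 and Aurka. Those of Cks2 and Prc1 were lost, leaving 2, without either wild-type, either transgenic or either AAV array. After alignment of the array medians, 314 of all genes were higher and 327 lower, in place of 386 and 187, and 4 of the 50 were higher and 1 lower.

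In this comparison 4 of 10 satellite cell and myoblast markers and 8 of 15 myotube markers rose, and the satellite list summed to 19593 to 19637 in transgenic muscle. Myog, Mymk and Mymx are in both counts. Macrophage markers rose in 2 of 15 cases (Lgals3 and Tyrobp), where 2.12% of all genes rose. The Lgals3 call was kept whichever array was dropped, and the Tyrobp call was not. Macrophage sums were 13067 to 20896, below those of mdx muscle. Endothelial markers lay below 0 in 8 of 8 cases with 0 called (3 at an unadjusted p under 0.05), and summed to 3080 on each transgenic array against 4853 to 5398 in wild type. Their part in the differences was not tested. With both replicates of transgenic muscle side by side, replicate 1 was higher than replicate 2 for 39 of 50 cell cycle genes (median 0.28, with 0.04 over all genes).

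**Figure D3:**
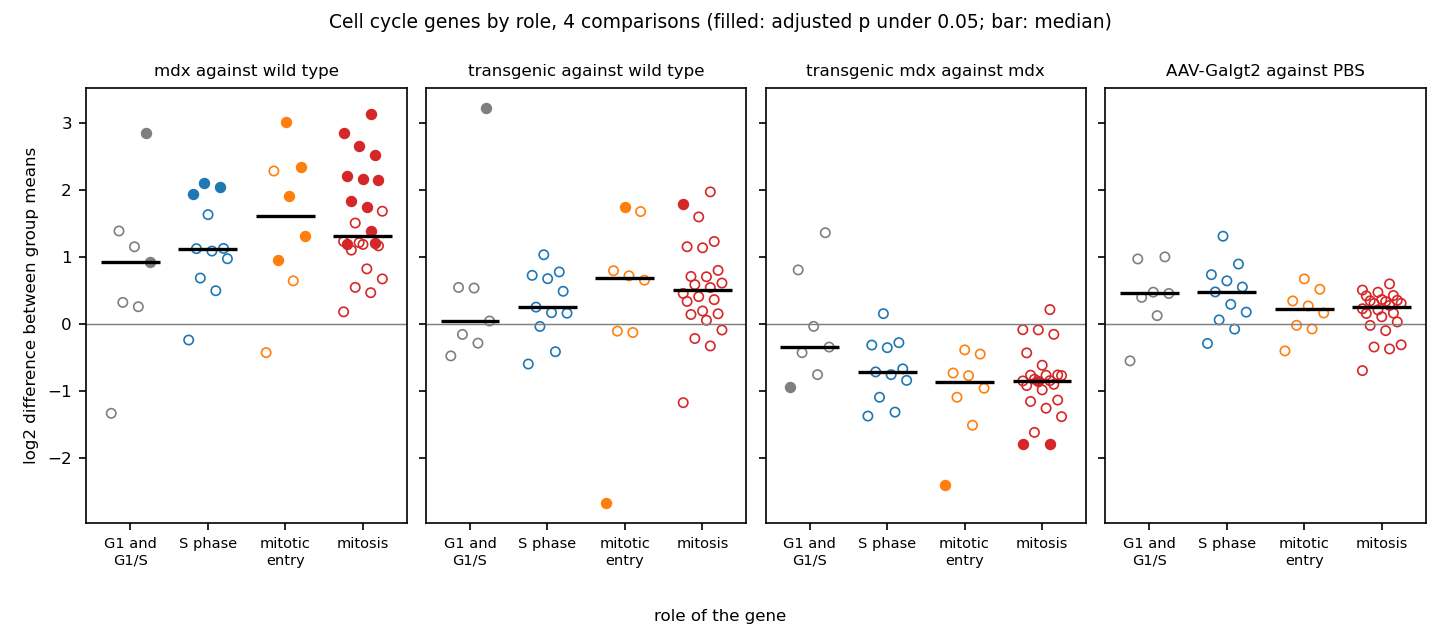
Each point is a cell cycle gene, placed by role and by its log2 difference in 4 comparisons; filled points passed an adjusted p under 0.05 and bars mark the median of the role. The mdx panel lies above 0 with 22 filled points, the panel of transgenic mdx against mdx lies mostly below 0 with 5 filled points, and the AAV panel has none.

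Where the transgene met dystrophin deficiency, cell cycle transcripts were lower than in mdx muscle without it. Against mdx, 0 of 50 genes rose and 5 fell, where 3.97% of all genes rose and 2.11% fell, and 46 of 50 lay below 0 with a median of -0.77 (all genes -0.01). Both transgenic mdx arrays were below both mdx arrays for 34 of 50 genes (22.3% of all genes). The role medians were -0.34 for G1, -0.71 for S phase, -0.86 for mitotic entry and -0.85 for mitosis. Aurka fell from 7.03 and 7.55 to 4.64 and 5.14 (-2.40 ± 0.25, 5.27-fold lower, adjusted p = 0.000763). Cdca3 fell from 8.46 and 8.51 to 6.35 and 7.03 (-1.79 ± 0.45, adjusted p = 0.0423). Cenpa, the histone variant gene of centromeres, fell from 7.97 and 8.01 to 5.42 and 6.99 (-1.79 ± 0.46, adjusted p = 0.0465). For these 3 genes both transgenic mdx arrays were below both mdx arrays. Ccnd1 fell from 11.07 and 11.24 to 10.09 and 10.33 (-0.95 ± 0.21, adjusted p = 0.0267), a level like that of wild type. Kif22, a chromosome-arm kinesin gene, fell from 7.84 and 7.52 to 6.81 and 6.84 (-0.86 ± 0.21, adjusted p = 0.041). No S phase gene passed; Mcm3 stood at -1.37 ± 0.43 (adjusted p = 0.0896) and Tk1 at -1.31 ± 0.47 (adjusted p = 0.137). The 2 genes furthest above 0 were Ccne2, at 7.94 and 7.88 against 7.36 and 5.74 (1.37 ± 0.42, adjusted p = 0.0847), and E2f8, at 8.89 and 8.38 against 7.74 and 7.91 (0.81 ± 0.43, adjusted p = 0.333). Aurka alone kept its call whichever array was dropped. The count was 1 to 3 without any single array of the first set or either AAV array, and 9 without either PBS array, which enters only through the shared variance. The 3 called without mdx replicate 1 include a rise, Ccne2 (2.18 ± 0.27, adjusted p = 0.00372). This comparison shares the mdx arrays with that of mdx against wild type, and an error in those arrays enters both with opposite sign. Strain also differs between transgenic mdx and mdx mice and cannot be told apart from the transgene here.

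Several other values moved with this difference. Transgenic mdx replicate 2 was higher than replicate 1 for 39 of 50 cell cycle genes (median 0.51 higher, against 0.08 over all genes), and it had the largest excess of the 3′ over the 5′ probe set of Gapdh, 1.23 on the log2 scale against 0.18 to 0.48 in the other muscle arrays. Without that array 2 of the 50 genes were called. Of 15 macrophage markers, 6 fell, with sums of 20115 to 20953 in transgenic mdx muscle against 38970 to 42910 in mdx. Of 8 endothelial markers, 3 fell, with sums of 2486 to 2712 against 4692 to 5072. Over all genes 2.11% fell. Among these marker falls only that of Gpnmb, a macrophage marker, kept its call whichever array was dropped. Satellite cell markers did not lean one way, with 5 above and 5 below 0 and a median of 0.03. Of these 10 markers 1 rose, where 3.97% of all genes rose, and the sums were 17676 to 21404 against 18788 to 19149 in mdx. The part of these cells and of RNA quality in the result was not tested.

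Set against wild type, transgenic mdx muscle had 5 genes higher and 1 lower, where 4.91% of all genes rose and 2.36% fell. The count of 1 fall is near the share over all genes. Strain, transgene and dystrophin deficiency all differ between these groups and cannot be told apart here. E2f8 rose by 3.66 ± 0.43 (adjusted p = 0.000841), Cks2 by 1.92 ± 0.41, Birc5 by 2.01 ± 0.47, Prc1 by 1.83 ± 0.40 and Cks1b by 0.93 ± 0.24, and Aurka fell by 2.82 on the log2 scale with a standard error of 0.25 (adjusted p = 0.000177). Both E2f8 and Aurka kept their calls whichever array was dropped; the count was 2 without wild-type replicate 1, wild-type replicate 2 or transgenic mdx replicate 2. After alignment of the array medians, 4 genes were higher and 1 lower, and over all genes 631 and 1048 in place of 894 and 430. The other probe set of E2f8, at a mean log2 level of 3.48, gave -0.02. Markers that rose here were 5 of 15 for macrophages, 5 of 10 for satellite cells and 8 of 15 for myotubes (1 fell), and 2 of 8 endothelial markers fell with all 8 below 0. The satellite cell and myotube counts share Myog, Mymk and Mymx. Macrophage sums were 20115 to 20953 against 8297 to 11005 in wild type, satellite cell sums 17676 to 21404 against 10579 to 11116 and endothelial sums 2486 to 2712 against 4853 to 5398. The part of these cells was not tested.

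Within transgenic muscle, no cell cycle gene was found to differ with dystrophin deficiency. Between transgenic mdx and transgenic muscle 0 of 50 passed (limma), and 0 had an unadjusted p under 0.05, where 0.0495% of all genes rose, 0.0055% fell and 3.89% had such an unadjusted p. Differences ran from -0.42 to 0.66 with a median of 0.17. The genes of smallest p were Aurkb, the passenger complex kinase gene (0.52 ± 0.27), and Plk1 (0.31 ± 0.21). The interaction, which asks whether the transgene's effect differed with dystrophin, called 0 of 50 genes in limma as well (of all genes, 0.022% above and 0.022% below 0), with 26 at an unadjusted p under 0.05 (11.9% of all genes) and 47 below 0. Strain differs along with dystrophin in both comparisons of this paragraph, so strain and dystrophin deficiency cannot be told apart in them. Birc5 had an interaction of -3.11 ± 0.66, Cdca3 of -2.95 ± 0.63 and Cks2 of -2.84 ± 0.58, each with an adjusted p of 0.114. Birc5, Cdca3 and Prc1 passed without either PBS array, and Ccne2 (2.65 ± 0.35, adjusted p = 0.0385) without mdx replicate 1.

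Beside the 51 genes, Dtl and Cdkn1a were higher in both transgenic groups than in the other groups of the first set. Dtl is the substrate receptor of the CRL4 ubiquitin ligase that removes Cdt1 and p21 during S phase. Wild-type arrays read 5.66 and 5.73 and mdx arrays 7.15 and 6.75. With the transgene they read 9.66 and 9.67, and with transgene and dystrophin deficiency 9.80 and 9.57. Its differences were 3.97 ± 0.29 for transgenic against wild type (adjusted p = 0.000106) and 2.74 ± 0.29 for transgenic mdx against mdx (adjusted p = 0.000876). Cdkn1a read 12.17 and 12.07 in muscle with the transgene alone and 12.19 and 12.21 in transgenic mdx muscle. These were 2.80 ± 0.30 above wild type (transgenic against wild type, adjusted p = 0.000904) and 1.46 ± 0.30 above mdx (transgenic mdx against mdx, adjusted p = 0.0202). The Dtl differences and the Cdkn1a difference from wild type kept their calls whichever array was dropped; the Cdkn1a difference from mdx did not without any single mdx or transgenic mdx array. E2f2 and Cdk6 were higher in transgenic than in wild-type muscle, by 2.13 ± 0.36 and 1.78 ± 0.36. Gmnn, the inhibitor of Cdt1, fell by 1.48 on the log2 scale in transgenic mdx against mdx (standard error 0.36, adjusted p = 0.039). In that comparison the lists held 1 rise and 2 falls among 23 replication genes, 0 rises and 1 fall among 30 mitosis genes, 0 and 0 among 9 G1 genes and 2 rises and 0 falls among 17 restraining genes. For transgenic against wild type they held 1, 0, 2 and 1 rises and 0 falls in the same order. Over all genes, 3.97% rose and 2.11% fell in the first of these comparisons and 2.12% and 1.03% in the second, so counts of 0 or 1 in a list lie near those shares. Apart from Dtl and Cdkn1a against wild type and Dtl against mdx, each of these lists lost its calls without some single array.

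**Figure D4:**
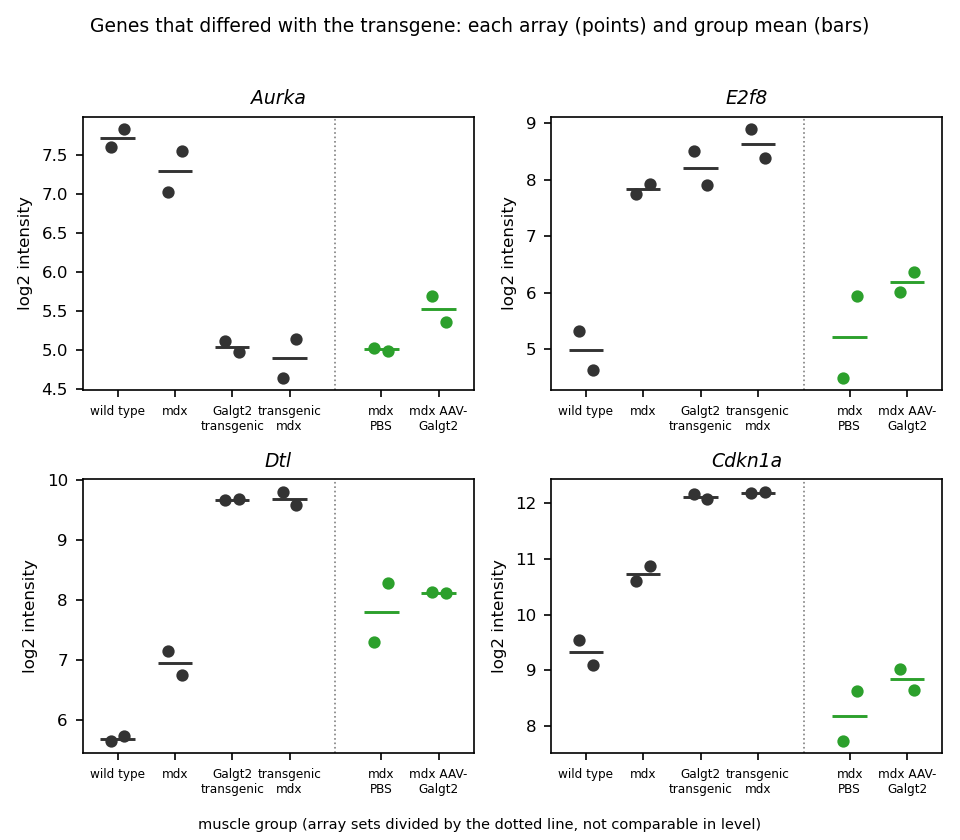
Points are single arrays and bars group means of the log2 intensity of Aurka and E2f8 and of the related genes Dtl and Cdkn1a; levels are not comparable across the dotted line. Aurka is lower and Dtl and Cdkn1a are higher in all 4 transgenic arrays than in all 4 other arrays of the first set, and E2f8 is lowest in the 2 wild-type arrays.

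No change in these genes was detected after delivery of Galgt2 by AAV into mdx muscle, in a test that called no gene at all. B4galnt2 itself was not called, at 10.54 and 10.56 (log2) after AAV and 5.27 and 4.26 after PBS. The absence of calls therefore cannot show that the cell cycle genes stayed the same. Against PBS muscle 0 of 50 genes passed (limma; 0% of all 18194 genes), with 2 of the 50 and 1506 of all genes (8.28%) at an unadjusted p under 0.05. The median was 0.30 over the 50 and 0.03 over all genes, and 38 lay above 0. Both AAV arrays exceeded both PBS arrays for 8 of 50 genes (25.3% of all genes). Plk1 read 4.08 and 4.01 after AAV and 3.32 and 3.42 after PBS (0.68 ± 0.21, adjusted p = 0.461). E2f8 read 6.02 and 6.37 against 4.49 and 5.94 (0.97 ± 0.43, adjusted p = 0.599). For both genes the AAV arrays were above the PBS arrays. Aurka read 5.69 and 5.36 against 5.02 and 4.98 (0.52 ± 0.25, adjusted p = 0.623). Among S phase genes Mcm3 (0.90 ± 0.43) and Mcm2 (1.31 ± 0.72) had the smallest p, and among mitosis genes Kif11 (-0.69 ± 0.41) and Bub1b (0.60 ± 0.39).

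The 2 PBS arrays stood apart from each other in these genes. PBS replicate 1 was lower than replicate 2 for 44 of 50 cell cycle genes, with a median difference of -0.86 where the median over all genes was -0.01. Macrophage markers summed to 14267 and 20774 in the 2 PBS arrays and to 18105 and 15173 in the AAV arrays, and satellite cell markers to 4146 and 6267 against 7782 and 7274; their part was not tested. Without PBS replicate 1 the medians of mitotic entry and mitosis changed sign, to -0.40 and -0.21, from 0.22 and 0.25 with all arrays, and 0 genes passed. Without PBS replicate 2, 1 gene passed, Mcm3 (1.74 ± 0.27, adjusted p = 0.0292).

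The transgene effect in mdx muscle was also tested against the AAV effect, as the difference of the 2 differences. Here 0 of 50 genes were higher and 3 lower, where 1.19% of all genes were higher and 0.896% lower. Aurka differed by -2.92 ± 0.35 (adjusted p = 0.00507), having fallen by 2.40 with the transgene and stood at 0.52, not called, after AAV. Plk1 differed by -1.45 ± 0.30 (adjusted p = 0.0434) and Ccnd1 by -1.35 ± 0.29 (adjusted p = 0.0468). Aurka alone kept its call whichever array was dropped. The count was 1 without PBS replicate 1, mdx replicate 2, transgenic mdx replicate 1 or any single wild-type, transgenic or AAV array, and 16 without PBS replicate 2. Strain enters the transgene effect, since transgenic mdx mice are C57BL/10J x C57BL/6J and mdx mice C57BL/10J, while AAV and PBS muscle are both C57BL/10J. Strain, route, timing and array set cannot be told apart here.

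In the cell lines each condition has 1 array, so no test was possible and differences are described by size. The pair without Galgt2 went against its labels. All 15 myotube markers were lower on the array labelled myotube than on the array labelled myoblast, with a median of -1.30; Myh8, the neonatal myosin, read 5.94 there and 10.06 on the other. The cell cycle genes moved in the direction opposite to the myotube markers. Whether the 2 arrays were exchanged was not tested. On the array labelled myotube, 47 of 50 were higher (52.8% of all genes), 8 of them at least 2-fold, and 0 were at least 2-fold lower, where 4.09% of all genes were at least 2-fold higher and 4.27% lower. Ccnd1 read 11.76 there and 9.29 on the array labelled myoblast, a difference of 2.46. Cdk1 read 10.87 and 9.71, Ccnb2 9.43 and 8.11 and Ube2c 10.71 and 9.14 on the same 2 arrays.

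In C2C12 cells with Galgt2 the markers followed the labels, with 15 of 15 myotube markers higher in myotubes (median 1.01). Their differences ran from 0.04 to 4.64, and 8 of 15 were at least 2-fold. The array labelled myoblast already had 13 of 15 at or above the median gene, and each cell line array had 13 to 15. Myog read 12.88 on that myoblast array and 13.15 in myotubes. How far the cells labelled myoblast had differentiated was not tested. In this pair 48 of 50 cell cycle genes were lower in myotubes and 2 higher (39.3% of all genes were higher). Of the 50, 26 were at least 2-fold lower and 0 at least 2-fold higher, where 2.24% and 3.35% of all genes passed that size. The 4 roles differed in depth, with medians of -0.39 for G1, -0.57 for S phase, -1.18 for mitotic entry and -1.33 for mitosis. At least 2-fold lower were 2 of 7 G1 genes, 2 of 11 S phase genes, 5 of 8 mitotic entry genes and 17 of 24 mitosis genes. Tk1 had the largest S phase difference, 8.29 in myoblasts and 6.12 in myotubes (-2.17), while Pcna read 11.79 and 11.62 (-0.17). Among mitosis genes Kif22 read 8.34 and 6.27 (-2.07). Cdk1 read 9.40 and 7.79 (-1.61) and Ccnb2 7.68 and 6.33 (-1.35). In G1, E2f7 read 7.64 and 6.03 (-1.61) and Ccnd1 9.68 and 8.24 (-1.44), whereas Cdk2 read 8.77 and 9.02 (0.25).

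**Figure D5:**
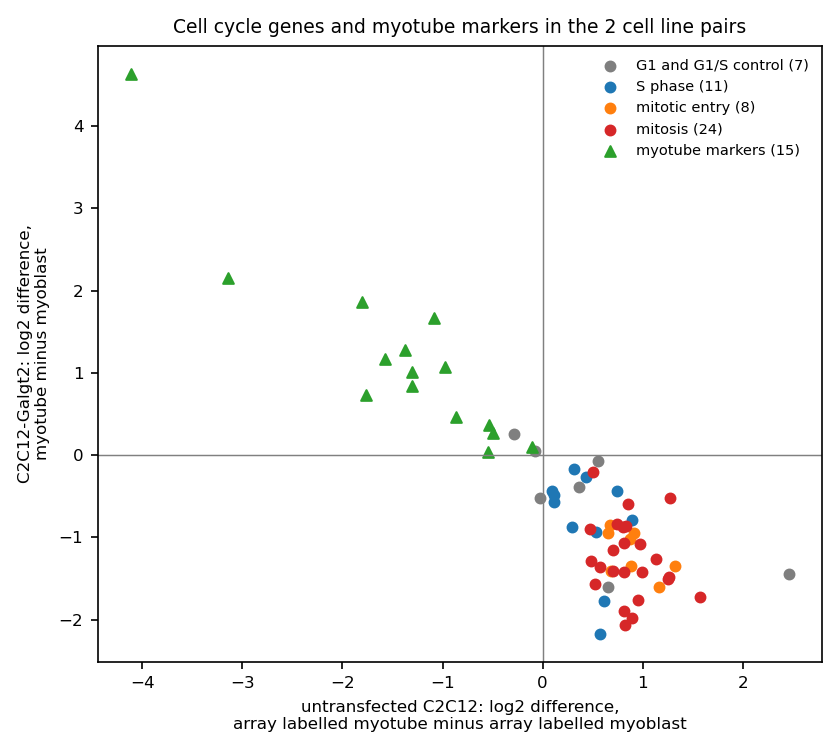
Each point is a gene, placed by its log2 difference between the arrays labelled myotube and myoblast, in untransfected C2C12 (horizontal) and in C2C12 with Galgt2 (vertical); circles are the 50 cell cycle genes by role and triangles the 15 myotube markers. Circles lie mostly at the lower right and triangles at the upper left, so the same labels go with opposite differences in the 2 pairs.

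Between the lines, cells with Galgt2 against untransfected cells, 0 of 50 genes were at least 2-fold higher and 1, E2f7 (-1.44), at least 2-fold lower on the arrays labelled myoblast, where 2.68% and 3.56% of all genes passed that size. On the arrays labelled myotube 0 were higher and 40 lower, where 4.51% and 4.75% of all genes passed. E2f7 (-3.69), Ube2c (-3.56) and Ccnd1 (-3.52) differed most. The myotube markers were lower in 14 of 15 cases in the first of these comparisons and higher in 15 of 15 in the second, so Galgt2 and the state of differentiation cannot be told apart in either. All 4 comparisons of cell lines share arrays in pairs.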

How the data were processed

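RNA of 12 muscle arrays and 4 cell line arrays was analysed from the authors' deposited intensity per probe set, made with GCOS and RMA per the submitters' processing notes, with no versions given. Values are positive and were taken as linear; their centring, and whether array sets were processed together, is not given in the sources used here. Per the labels' protocols, 25 ng of muscle RNA was amplified, a step that can favour the 3′ end. Of 45101 probe sets, 34958 carry 1 gene symbol in the platform annotation, 932 several and 9211 none; the last 2 kinds were not used. The brightest probe set of a gene was taken, for muscle and cell lines apart. Probe sets of 12 members may cross-hybridise by their name (6 of type s, 6 of type x), among them those of Rrm2, Mcm5 and Aurkb.

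The means of 6 groups were fitted to log2 values of the 12 muscle arrays in limma 3.58.1 (R 4.3.3), with eBayes and Benjamini-Hochberg adjustment over 18194 genes within each of 8 comparisons, two-sided, at 0.05. The procedure was tested on simulated data. Arrays have no read depth, and their number limits the precision. Alternatives were other normalizations, probe set rules, a filter on dim genes, a variance trend, a fit within an array set, a replicate block and leaving out each array. Members, roles, lists and tests were chosen with earlier results of these data known. Values were given per role for up to 4 called genes of largest difference, or the 2 of smallest p where none passed; for cell lines, for genes of largest difference; Dtl, Cdkn1a and a few near the threshold were named after their values were seen.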

Additional observations from a re-analysis of the deposited data

Results flagged for a closer look

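For 3 genes the effect of the transgene in mdx muscle differed from that of AAV-Galgt2 in mdx muscle by a test of the difference itself (limma, Benjamini-Hochberg): Ccnd1 by -1.35, Plk1 by -1.45 and Aurka by -2.92 on the log2 scale. Only Aurka kept its call whichever array was dropped. Strain, route, timing and array set cannot be told apart in this comparison. The 2 pairs of cell lines moved in opposite directions between the arrays labelled myoblast and myotube, which was not tested for want of replicates. The median of the G1 genes was 0.37 in untransfected C2C12 and -0.39 in C2C12 with Galgt2. That of the S phase genes was 0.43 and -0.57, that of the mitotic entry genes 0.88 and -1.18 and that of the mitosis genes 0.82 and -1.33. The myotube markers of the untransfected pair go against its labels.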

How the results depend on the processing

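No call changed direction under the alternatives run. With single arrays left out, the count of cell cycle genes called ran from 2 to 27 for mdx against wild type, 2 to 4 for the transgene alone against wild type, 1 to 9 for transgenic mdx against mdx, 2 to 9 for transgenic mdx against wild type, 0 to 1 for AAV against PBS, 0 to 3 for the interaction and 1 to 16 for the transgene effect against the AAV effect; it was 0 throughout for transgenic mdx against transgenic. Deviations of same-numbered arrays correlated at -0.439 (wild type and mdx) to 0.542 (wild type and transgenic) within the first array set and at -0.0467 between AAV and PBS. These values do not show whether equal replicate numbers pair the samples. With the replicate number as a replicate block the counts were 14, 2, 1, 5, 0, 0, 0 and 1 in the order mdx against wild type, the transgene alone against wild type, transgenic mdx against mdx, against wild type and against transgenic, AAV against PBS, the interaction and the transgene against the AAV effect. Among genes at or above the median level, 3 passed for transgenic mdx against mdx and 1 for the transgene against the AAV effect, and with the most variable probe set of a gene 1 passed for the latter. The filter on level removes dimmer genes before the fit, Aurka and Plk1 among them, so these were not tested under it. The 1 gene that passed it for the transgene against the AAV effect was Ccnd1. The role medians of mdx against wild type stayed above 0 under each alternative. That of the G1 genes in transgenic mdx against mdx was -0.34 over all 7 and 0.39 among genes at or above the median level. The second value covers only the G1 genes that the filter kept, so the set differs and not the level of any gene. In the cell lines a size of at least 1.5 in log2 left 2 genes in the untransfected pair, 11 in the pair with Galgt2 and 0 between the arrays labelled myoblast; between the latter, 3 passed with arrays shifted to the same median, 3 after quantile normalization and 2 with the brightest probe set of the muscle arrays. The fit within 1 array set could not be made for the transgene against the AAV effect, which spans both sets. Limits are 2 arrays per group, strain differing with dystrophin and between transgenic mdx and mdx mice, and bulk tissue.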
